A study of Mus musculus with 10 samples.

Results

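The mitochondrial respiratory chain and ATP synthase were followed through 100 genes: 87 encoded in the nucleus and 13 in the mitochondrial genome, out of 54532 genes in the count table. Members were the protein-coding genes whose symbols begin with Nduf, Uqcr, Cox4 to Cox8, Atp5 or mt-, together with Cyc1, Sdha, Sdhb, Sdhc and Sdhd; the Ndufaf assembly factors were left out. The choice rests on gene names and used no measured value. By complex the nuclear members were 36 of complex I, 4 of complex II, 9 of complex III, 20 of complex IV and 18 of complex V; the mitochondrial genome adds 7, 0, 1, 3 and 2.

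RNA was sequenced from mouse cells of strain 129SV in 10 libraries of poly-T selected RNA. Epiblast stem cells (EpiSC), the primed pluripotent cells of the post-implantation epiblast, gave 5 libraries: 2 labelled haploid and p53-negative (haEpi1 and haEpi5), 2 labelled wild-type diploid (Epi_fema and Epi_male) and 1 labelled diploid and p53-negative. Of epiblast-like cells (EpiLC) there were 2 haploid libraries, 1 labelled p53-negative and 1 wild type. Embryonic stem cells (ESC), the naive pluripotent state, gave 1 haploid and 1 diploid library, both labelled wild type, and mouse embryonic fibroblasts (MEF) gave 1 wild-type diploid library. The labels say nothing of how p53 was removed, of passage or of medium, nor whether the libraries of a cell type came from separate derivations, so p-values measure only the spread between these libraries. With several groups of 1 library, cell types were compared across ploidy and p53 labels, and every haploid EpiSC library is also labelled p53-negative.

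The respiratory chain passes electrons from NADH (complex I) and succinate (complex II) through ubiquinol and complex III to cytochrome c, and complex IV hands them to oxygen. The proton gradient that complexes I, III and IV build drives ATP synthase, complex V. The mitochondrial genome encodes core subunits of all but complex II, whereas the other subunits are nuclear genes whose products are imported. Naive and primed pluripotent cells are known to differ in how much they rely on respiration, and fibroblasts are a differentiated comparison.

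Total counts lay between 15862113 and 18814003 per library. The labelled cell types carried their own markers, but not these alone. The p53-negative EpiLC library also carried naive markers, and the EpiSC and haploid ESC libraries also carried fibroblast markers. The summed level of 8 naive markers was 1560 and 3183 counts-per-million units (CPM, scaled by TMM) in the ESC libraries and 18.7 to 95.6 CPM in the EpiSC libraries. It was 750 CPM in the p53-negative EpiLC library and 76.9 CPM in the wild-type EpiLC library. In MEF the naive sum was 114 CPM, above every EpiSC library, with 4 of the 8 markers at 0 counts. The sum of 6 post-implantation epiblast markers was 1079 CPM in p53-negative and 3874 CPM in wild-type EpiLC. It was 893 to 1654 CPM in EpiSC, 273 and 269 in haploid and diploid ESC and 99.3 in MEF. For 3 shared pluripotency markers it was 628 to 851 CPM in EpiSC, 984 and 1278 in EpiLC, 1292 and 2066 in ESC and 7.01 in MEF. Among 12 fibroblast markers the summed level was 62593 CPM in MEF, 401 to 1668 CPM in the EpiSC libraries, 979 CPM in the haploid ESC library, only 22.7 CPM in diploid ESC with 5 of the 12 at 0 counts, and 41.4 and 114 CPM in the EpiLC libraries. Trp53 itself did not follow its labels: it stood at 50.5 and 61.8 CPM in the haploid p53-negative EpiSC libraries, 32.9 in the p53-negative EpiLC library and 2.17 in the diploid p53-negative EpiSC library, against 36.9 in Epi_fema, 28.5 in haploid ESC and 199 to 375 CPM in Epi_male, wild-type EpiLC and diploid ESC, with 129 in MEF. A gene-level count may include reads outside a deleted part, so it checks the labels only in part, and genotypes are given below as the labels state them.

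The sequences shown first mark the limits and features of the gene set. Annotated nuclear copies of mitochondrial DNA match at least 7 of the mitochondrial genes: on chromosome 1 (mm10, bases 24611535 to 24616197, minus strand) 7 pseudogenes lie in the same order. In GENCODE vM21 transcripts, Gm28661 matched mt-Co2 over 681 of 681 aligned bases, Gm28437 matched mt-Co3 over 783 of 783, Gm10925 matched mt-Atp6 over 678 of 678 and Gm28439 matched mt-Nd4 over 876 of 876. Gm10222 matched mt-Nd4l over 294 of 294 bases and Gm28438 matched mt-Nd3 over 342 of 342. Gm29216 differed from mt-Co1 at 1 of 483 aligned bases, A1066T, counted from the first base of mt-Co1. The 60 bases from base 1063 of mt-Co1, and the stretch aligned to them in the copy, show with that base in capitals how little separates reads of both origins.
mt-Co1: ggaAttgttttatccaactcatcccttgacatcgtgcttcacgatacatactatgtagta
Gm29216: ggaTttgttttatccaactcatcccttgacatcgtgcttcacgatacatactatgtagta

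Promoters were read from RefSeq windows (GRCm38.p6, 250 bases before to 50 after each start), which held 67 of the 87 nuclear members. Binding motifs of factors known from respiratory gene promoters were searched on both strands. The NRF1 motif with 1 free base was in a window of 17 of 67 members (25.4%) and of 5.19% of 27025 genes; its strict palindrome, a case of it, was in 5 members (7.46%) and 1.07% of genes. CCGGAAG, an ETS-type site as bound by GABPA, was in 16 members (23.9%) and 9.93% of genes, and AAGATGGC, a YY1 site, was in 9 members (13.4%) and 3.19% of genes. The ERR site TCAAGGTCA was in 2 members (2.99%) and 0.466% of genes. A window of a member held a median of 19 CpG dinucleotides, range 2 to 39, against a median of 7 over all genes. The NRF1 and ETS letters themselves contain CG, and motif shares at equal CpG content were not compared. Of the 5 members that carry the NRF1 palindrome, Cox6a1 and Atp5g2 had the highest FPKM and are printed below with every match to a searched motif in capitals. Beside them stand Cox7b2 and Uqcr10, which differed between cell types below; their windows hold none of the searched letters. A match is only a match of letters.
Cox6a1, chr5:115348909-115349208, minus strand: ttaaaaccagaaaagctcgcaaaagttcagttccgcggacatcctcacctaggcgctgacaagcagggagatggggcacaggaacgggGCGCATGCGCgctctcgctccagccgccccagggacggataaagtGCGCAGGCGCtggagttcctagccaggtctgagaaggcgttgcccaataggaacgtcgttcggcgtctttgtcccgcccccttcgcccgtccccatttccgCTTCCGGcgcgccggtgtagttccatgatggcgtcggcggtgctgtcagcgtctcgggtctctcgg
Atp5g2, chr15:102670998-102671297, minus strand: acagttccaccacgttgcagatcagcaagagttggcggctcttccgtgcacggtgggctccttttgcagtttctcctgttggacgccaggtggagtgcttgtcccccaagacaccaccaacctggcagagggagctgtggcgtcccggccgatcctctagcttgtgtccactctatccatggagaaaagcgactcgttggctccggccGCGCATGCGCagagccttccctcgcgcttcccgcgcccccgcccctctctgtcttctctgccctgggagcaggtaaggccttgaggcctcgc
Cox7b2, chr5:71548156-71548455, minus strand: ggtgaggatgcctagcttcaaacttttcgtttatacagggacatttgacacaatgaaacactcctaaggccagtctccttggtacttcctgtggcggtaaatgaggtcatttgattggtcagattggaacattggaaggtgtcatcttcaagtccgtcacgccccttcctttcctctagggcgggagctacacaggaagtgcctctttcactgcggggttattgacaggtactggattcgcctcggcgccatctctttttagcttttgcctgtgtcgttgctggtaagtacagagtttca
Uqcr10, chr11:4704295-4704594, minus strand: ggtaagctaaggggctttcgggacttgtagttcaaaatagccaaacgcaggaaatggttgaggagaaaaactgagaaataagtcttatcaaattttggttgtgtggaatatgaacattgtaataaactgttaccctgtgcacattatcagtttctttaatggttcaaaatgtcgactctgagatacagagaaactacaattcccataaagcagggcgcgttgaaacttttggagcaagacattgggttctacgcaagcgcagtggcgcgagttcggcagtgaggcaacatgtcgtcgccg

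Among the 5 complexes, the level per length was compared by the deposited FPKM, as the median of a gene over the 10 libraries. FPKM here are counts per kilobase of the gene length given with the counts, scaled to depth. That length was 5628 bases for Ndufb2 and 419 for Ndufa1, and ranks by FPKM depend on it. The median member of complex I stood at 33.6 FPKM, of complex II at 47.1, of complex III at 69.5, of complex IV at 52.8 and of complex V at 53.1. In complex V the catalytic subunits Atp5b and Atp5a1 led with 387 and 248 FPKM, followed by Atp5c1 of the rotor stalk with 104. In complex IV the small structural subunits Cox6a1 (356 FPKM), Cox8a (331) and Cox7c (189) led, and Cox6a2, Cox7b2 and Cox8c were lowest with 0.0749, 0.0503 and 0 FPKM. Complex I was headed by Ndufa2, Ndufa1 and Ndufb11 at 84.8, 84.7 and 84.2 FPKM and closed with Ndufb2 at 1.14. Complex III spanned a narrow range, from 48.3 FPKM for its core protein Uqcrc2 to 103 for the small subunit Uqcr10. In complex II the membrane anchor Sdhd stood at 81.4 FPKM, the flavoprotein Sdha at 60.5, the iron-sulfur subunit Sdhb at 33.7 and the anchor Sdhc at 22.8. One of 2 gene IDs of Atp5o was at 0 counts in every library. Of the nuclear members 38 of 87 overlap the span of another gene, as do 10 of 13 mitochondrial ones, and without a stated strand setting their reads cannot be told apart.

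The nuclear set took 0.744% to 1.24% of all counts per library and the mitochondrial set 1.16% to 3.74%. The nuclear share was 0.965% in haEpi1, 1.01% in haEpi5, 0.985% in Epi_fema, 0.963% in Epi_male and 0.825% in diploid p53-negative EpiSC. It was 1.12% in p53-negative EpiLC, 1.02% in wild-type EpiLC, 1.08% in haploid ESC, 1.24% in diploid ESC and 0.744% in MEF. By share of counts diploid ESC thus stood highest and MEF lowest, and the EpiSC libraries lay below the ESC and EpiLC libraries. That order depends on the scale. As summed TMM-scaled CPM the lowest library was diploid p53-negative EpiSC (8143 CPM, MEF 8615), and haEpi5 (10037 CPM) lay above haploid ESC (9614 CPM). Without Atp5a1 and Atp5b, haEpi5 (0.750% of counts), Epi_fema (0.730%) and Epi_male (0.717%) lay above wild-type EpiLC (0.708%). Exact binomial 95% intervals, which cover counting error only, ran from 0.960% to 0.969% in haEpi1 and from 1.23% to 1.25% in diploid ESC. In bulk samples fewer cells of a type and less RNA per cell cannot be told apart.

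**Figure D1:**
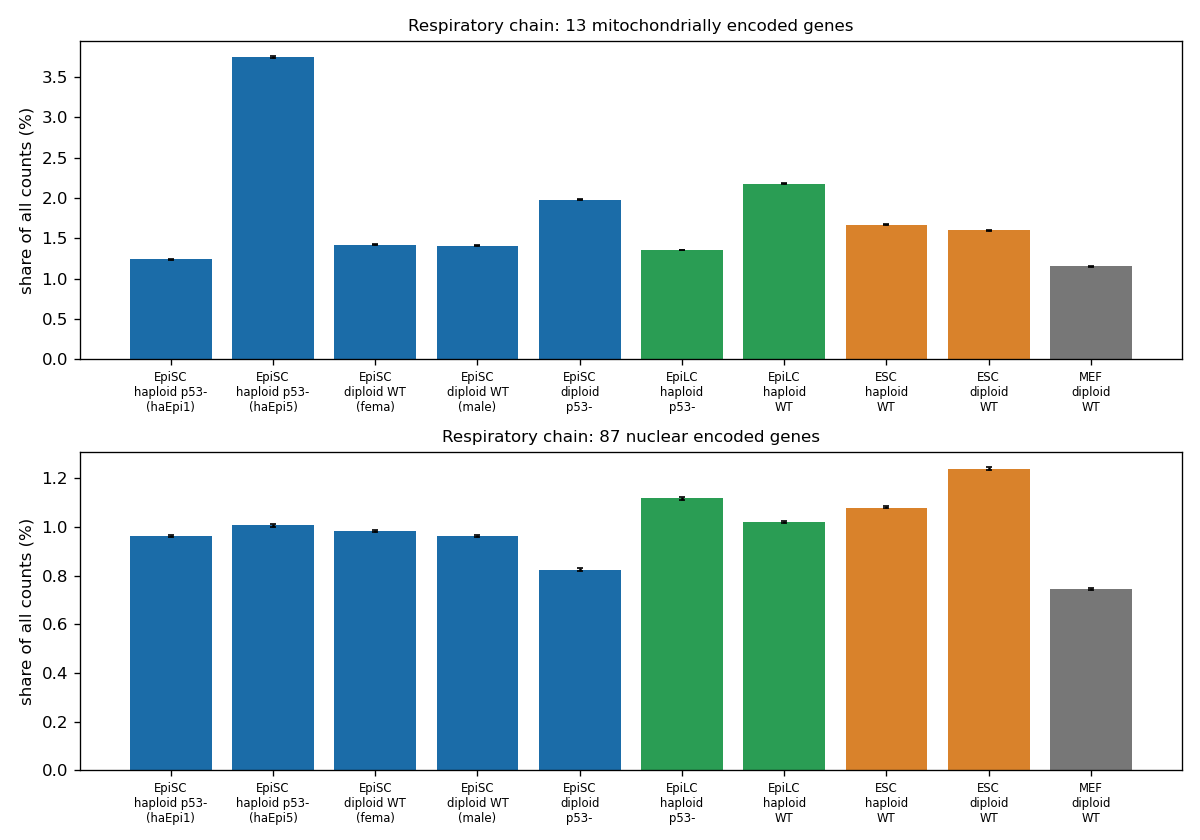
Share of all counts (%) taken by the 13 mitochondrially encoded genes (top) and the 87 nuclear encoded genes (bottom) in each library; bars start at 0, error bars are exact binomial 95% intervals. The mitochondrial share was 3.74% in haEpi5, above all other libraries, while its nuclear share was 1.01% against 0.825% to 0.985% in the other EpiSC libraries.

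The mitochondrial share split differently from the nuclear one. It was 3.74% in haEpi5, 2.17% in wild-type EpiLC and 1.98% in diploid p53-negative EpiSC; it was 1.24% in haEpi1, 1.42% in Epi_fema, 1.41% in Epi_male, 1.36% in p53-negative EpiLC, 1.67% in haploid ESC, 1.60% in diploid ESC and 1.16% in MEF. The highest share thus came from 1 of the 2 haploid EpiSC libraries and the other was among the lowest. The mitochondrial ribosomal RNAs, which are no members, took 0.0833% of counts in haEpi5 and 0.0232% to 0.0793% elsewhere, and the fibroblast marker sum was also highest among EpiSC in haEpi5 (1668 CPM); their part in the high share was not tested.

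Levels of the 13 mitochondrial mRNAs fell into a high and a low class. The 7 genes of the high class were mt-Co1, the catalytic subunit of complex IV, mt-Cytb of complex III and the complex I subunits mt-Nd1, mt-Nd2, mt-Nd4, mt-Nd5 and mt-Nd6; their medians lay between 662 FPKM for mt-Nd6 and 4215 for mt-Co1. The 6 others were mt-Co2 (median 40.7 FPKM), mt-Co3 (22.7), mt-Atp6 (20.8), mt-Nd4l (12.3), mt-Nd3 (4.31) and mt-Atp8 (3.18). Of these 6, all but mt-Atp8 have an annotated copy of identical sequence on chromosome 1. mt-Atp8 lies between mt-Co2 and mt-Atp6, whose copies are also neighbours, and overlaps mt-Atp6 by 43 bases. The stretch between those copies was not aligned, so a copy of mt-Atp8 there was not looked for. The 7 pseudogenes together took 0.00521% to 0.0276% of counts and the 6 low genes 0.00377% to 0.0289%. The treatment of multiply mapped reads is not known here, and levels of these 6 genes are uncertain. The same holds for the parts of mt-Nd4 and mt-Co1 that a copy matches, 876 of 1378 and 483 of 1545 bases.

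**Figure D2:**
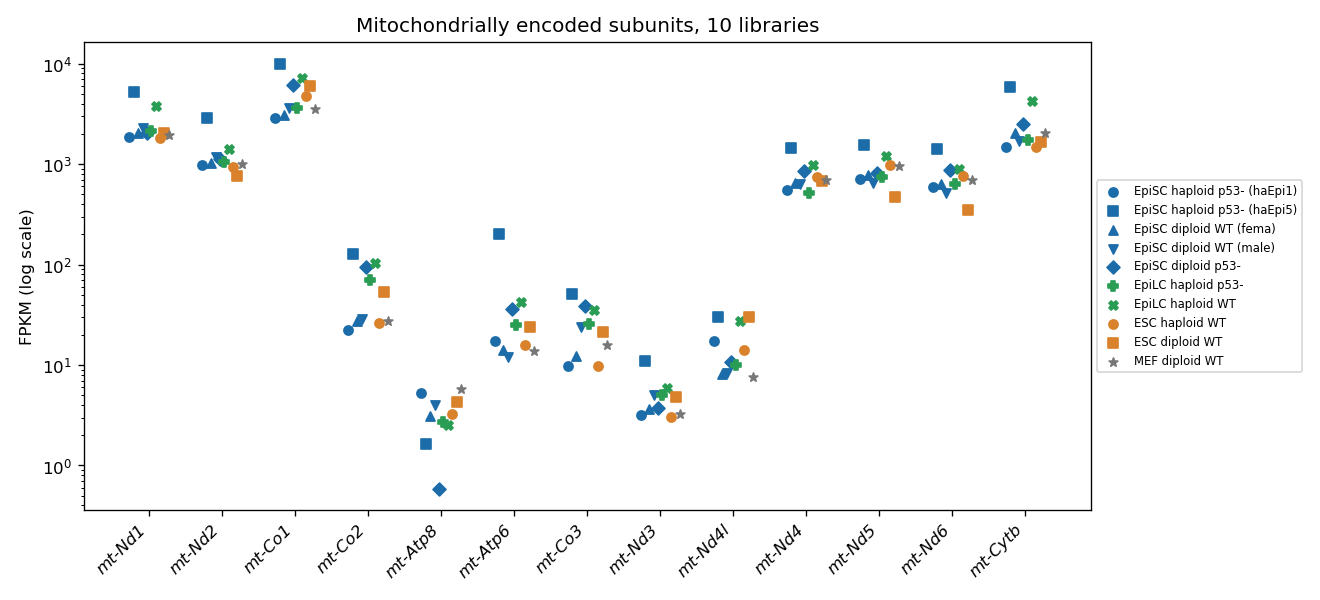
Deposited FPKM (log scale) of the 13 mitochondrially encoded genes, 1 point per library. haEpi5 (blue square) is highest for 11 of the 13 genes; mt-Co2, mt-Atp8, mt-Atp6, mt-Co3, mt-Nd3 and mt-Nd4l lie far below the others.

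For the 7 genes of the high class, haEpi5 was the highest library throughout. mt-Co1 stood at 16027 CPM in haEpi5 and 4583 CPM in haEpi1, a ratio of 3.50, and between 4871 and 11269 CPM in the other 8 libraries. mt-Cytb, the core of complex III, stood at 6972 CPM in haEpi5 and 1751 in haEpi1, a ratio of 3.98, and the next highest library was wild-type EpiLC at 4869 CPM. For mt-Nd1, mt-Nd2, mt-Nd4, mt-Nd5 and mt-Nd6 the ratio of haEpi5 to haEpi1 was 2.83, 2.92, 2.66, 2.16 and 2.40. Over the 84 nuclear members tested, the median of the same ratio was 1.14. mt-Nd5 and mt-Nd6 overlap by 14 bases on opposite strands. Diploid ESC was the lowest library for mt-Nd2, mt-Nd5 and mt-Nd6, at 793, 857 and 178 CPM, while it was the fourth highest for mt-Co1 at 9121 CPM.

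No mitochondrial gene passed the test between cell types. edgeR's quasi-likelihood test (Benjamini-Hochberg adjustment over 21104 genes, threshold 0.05) called 0 of 13 in EpiSC against ESC, where 16.9% of all genes tested were called. At an unadjusted p under 0.05 it was 0 of 13, against 31.2% of all genes, and DESeq2 called 0. The median log2 fold change of the 13 was 0.52 for EpiSC against ESC and 0.52 for EpiLC against ESC, where 0.426% of all genes were called. For mt-Cytb it was 0.84 (SE 0.57, edgeR adjusted p 0.357) and for mt-Co1 -0.02 (SE 0.52, edgeR adjusted p 0.985) in EpiSC against ESC. The spread between EpiSC libraries, 8223 ± 4856 CPM for mt-Co1 (SD, n = 5) against 8196 ± 1309 in ESC (n = 2), exceeds the difference. Without haEpi5 the median of the 13 for EpiSC against ESC was 0.08, still with 0 calls.

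Between EpiSC and ESC the nuclear subunits leaned lower in EpiSC, and 5 of 84 tested passed (5.95%), all lower, where 10.1% of all genes tested were called lower. The share called is thus not above the background. The log2 fold change was negative for 68 of the 84 (81.0%), with a median of -0.29. Over all genes 51.1% were negative with a median of -0.02, and over protein-coding genes 47.7% with a median of 0.04. By complex the median was -0.57 in complex IV (3 of 18 called), -0.39 in complex III (1 of 9 called, all 9 negative), -0.27 in complex V (1 of 17), -0.21 in complex I (0 of 36) and -0.05 in complex II (0 of 4). The called genes were Cox7b2, Cox5a and Cox6c of complex IV, Uqcr10 of complex III and Atp5g1 of complex V. With wild-type libraries only, 0 were called with a median of -0.16, and the share of all genes called in that smaller fit is not given here. The lean was weaker without diploid ESC, where 52 of the 84 were negative and the median was -0.09. The fibroblast marker sum, 401 to 1668 CPM in EpiSC and 979 and 22.7 CPM in ESC, is lowest in that same library, and its part was not tested.

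**Figure D3:**
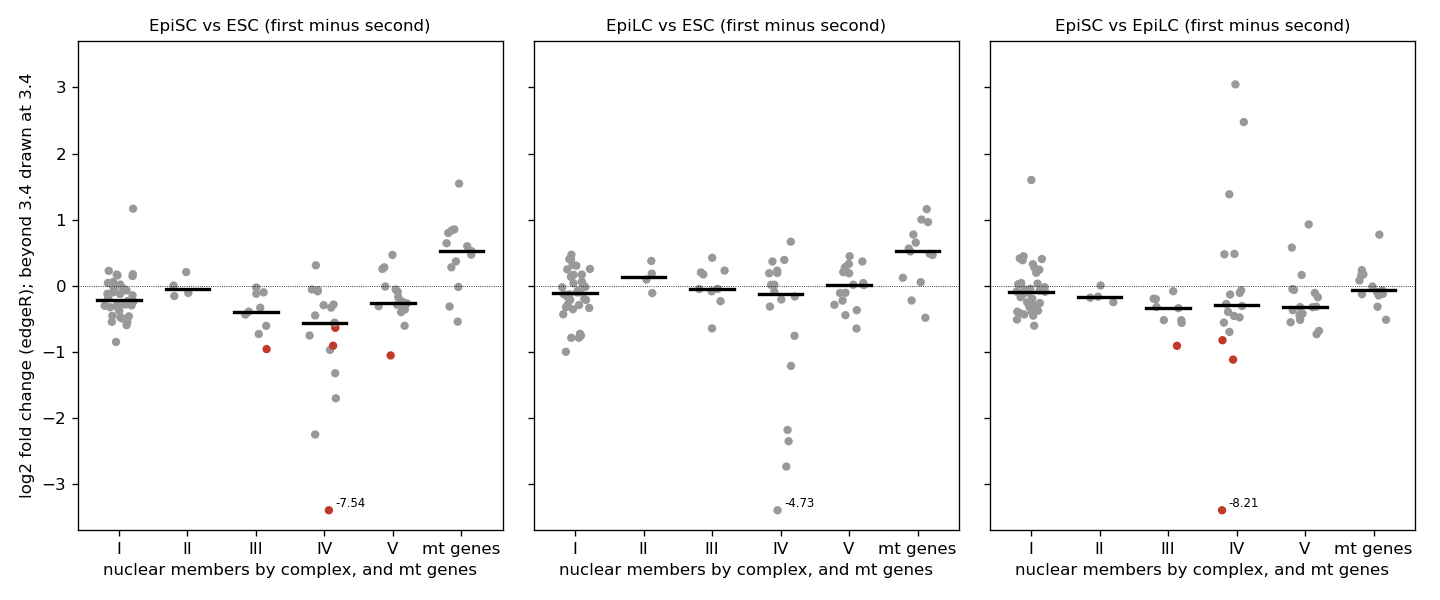
log2 fold changes (edgeR, first cell type minus second) of the nuclear members by complex and of the 13 mitochondrial genes in 3 comparisons; black bars are medians, red points passed an adjusted p of 0.05, and points beyond 3.4 are drawn at 3.4 with their value. Complex IV holds 3 of the 5 red points of EpiSC against ESC, and no mitochondrial gene is red.

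Uqcr10, a small subunit of complex III (chromosome 11, 4701973 to 4704342), stood lower in EpiSC than in EpiLC and ESC. It stood at 61.0 and 63.1 CPM in the haploid EpiSC libraries, 54.3 and 57.3 in the wild-type diploid ones and 58.3 in diploid p53-negative EpiSC. The values were 103 and 115 CPM in EpiLC, 91.6 in haploid ESC, 133 in diploid ESC and 55.0 in MEF. All 5 EpiSC libraries lay close together and below every EpiLC and ESC library. MEF lay in the EpiSC range, and the EpiLC values lay between those of the ESC libraries. Cases of no overlap, here and below, were read from genes already called. The share of all genes without overlap is not given. The log2 fold change was -0.96 against ESC (SE 0.19, edgeR adjusted p 0.00978) and -0.91 against EpiLC (SE 0.19, edgeR adjusted p 0.0199). Without diploid ESC the first was -0.67 with an adjusted p of 0.0827 (edgeR).

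Cox5a encodes a nuclear subunit of complex IV on its matrix side (chromosome 9, 57521274 to 57532426). Its level was 69.7 CPM in haEpi1, 95.1 in haEpi5, 66.7 in Epi_fema, 67.4 in Epi_male and 74.9 in diploid p53-negative EpiSC, against 113 in haploid ESC and 162 in diploid ESC. The EpiLC libraries stood at 111 and 129 CPM and MEF at 60.4. The EpiSC and ESC libraries did not overlap, and the log2 fold change was -0.91 (SE 0.22, edgeR adjusted p 0.0205); without diploid ESC it was -0.63 (adjusted p 0.166, edgeR). Cox6c, a membrane subunit of complex IV (chromosome 15, 35925886 to 35938246), stood at 98.0, 103, 96.3, 117 and 97.1 CPM in the same order of EpiSC libraries and at 142 and 171 CPM in haploid and diploid ESC. Against ESC it fell by 0.64 in log2 units (SE 0.19, edgeR adjusted p 0.0449) and by 0.83 against EpiLC, where it stood at 155 and 202 CPM (SE 0.19, edgeR adjusted p 0.0256). Of the 5 calls against ESC it is the least stable: 9 of 16 alternatives against ESC, with adjusted p up to 0.358, did not keep it past the threshold.

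Atp5g1 is 1 of 3 genes for the same mature subunit c of the ATP synthase ring (chromosome 11, 96068852 to 96075670). It stood at 68.4 CPM in haEpi1, 83.0 in haEpi5, 82.3 in Epi_fema, 46.8 in Epi_male and 60.7 in diploid p53-negative EpiSC. The ESC libraries were at 97.9 and 180 CPM, the EpiLC libraries at 116 and 101 and MEF at 53.9. EpiSC lay below ESC without overlap, with a log2 fold change of -1.06 (SE 0.28, edgeR adjusted p 0.0313), and of -0.55 without diploid ESC (edgeR adjusted p 0.341). Its sister genes encode the same mature protein: Atp5g2 ran from 131 to 203 CPM in EpiSC and 139 to 201 in ESC, and Atp5g3 from 191 to 223 and 229 to 277 CPM. By FPKM Atp5g1 was the lowest of the 3, with a median of 16.3 against 95.1 for Atp5g2, and Atp5g3 was the highest. The gap depends on the gene length used, 4912 bases for Atp5g1 and 1675 for Atp5g2. By CPM their medians were 82.7 and 164.

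**Figure D4:**
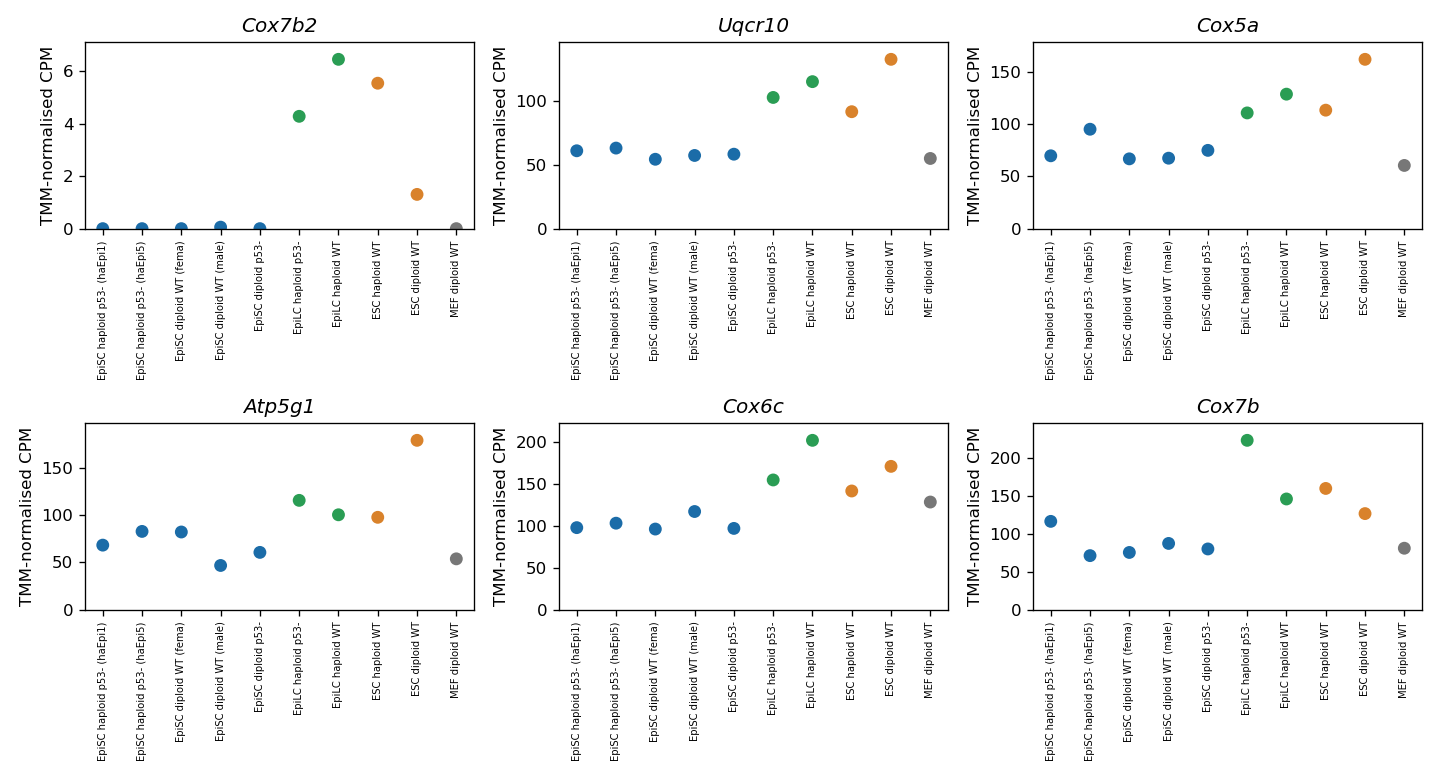
TMM-normalised CPM of the 6 nuclear members called lower in EpiSC than in ESC or EpiLC, 1 point per library (blue EpiSC, green EpiLC, orange ESC, grey MEF); axes start at 0. All 5 EpiSC points of Uqcr10 lie at 54.3 to 63.1 CPM, below the 4 EpiLC and ESC points at 91.6 to 133.

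Cox7b2 showed a near on-off pattern. It is a paralogue of the complex IV subunit gene Cox7b, and its known expression is largely in testis (chromosome 5, 71442824 to 71548205; its promoter window holds 10 CpG). It had 1 count in the 5 EpiSC libraries together, in Epi_male, and 0 in MEF, which allows up to 0.191 CPM there. The ESC libraries had 111 counts (5.54 CPM, haploid) and 21 counts (1.30 CPM, diploid), and the EpiLC libraries 68 counts (4.28 CPM, p53-negative) and 100 counts (6.45 CPM, wild type). Every EpiLC and ESC library lay above every EpiSC library. Normalised to library size the ratio to EpiSC was 327 for ESC (95% counting interval 57.6 to 12993) and 478 for EpiLC (84.7 to 19003). The edgeR adjusted p was 0.000912 against ESC and 0.00103 against EpiLC; with wild-type libraries only it was 0.122 and 0.335.

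Cytochrome c and the ATP carrier, listed beside the chain, include germ cell paralogues with a like distribution. Slc25a31, the germ cell form of the ADP/ATP carrier, stood at 51.7 CPM in haploid ESC, 3.11 in diploid ESC, 53.8 and 9.62 in p53-negative and wild-type EpiLC, and at most 0.164 CPM in any EpiSC library. Cyct, the testis cytochrome c, stood at 9.54 and 4.91 CPM in ESC, 9.63 and 4.19 in EpiLC and at most 0.164 in EpiSC. Both were lower in EpiSC than in ESC (Slc25a31 log2 fold change -8.52, SE 1.14, edgeR adjusted p 0.00152; Cyct -6.61, SE 0.81, adjusted p 0.00105) and than in EpiLC (-8.75, edgeR adjusted p 0.00271, and -6.55, adjusted p 0.00199). Somatic Cycs stood at 102 to 138 CPM in EpiSC and 111 and 119 CPM in ESC. These 2 were the only ones called of 12 genes tested of the list of cytochrome c and inner membrane carriers in EpiSC against ESC (16.7%, where 16.9% of all genes tested were called and 10.1% were called lower). Cox8c, another low paralogue of complex IV, had 0 counts in all EpiSC libraries and in MEF, 2 and 3 counts in ESC and 8 in each EpiLC library, too few to be tested. The testis form Cox6b2 did not share this distribution. It stood at 3.04 to 35.2 CPM in EpiSC, 8.59 and 53.8 in haploid and diploid ESC and 10.01 and 17.3 in p53-negative and wild-type EpiLC.

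EpiSC and EpiLC, both models of the post-implantation epiblast, differed in 4 of 84 nuclear members (4.76%), all lower in EpiSC, where 9.65% of all genes tested were called and 5.88% were called lower. They were Cox7b2, Uqcr10 and Cox6c, with the values above, and Cox7b. The median over the 84 was -0.19, against 0.01 over all genes, with 62 negative (73.8%, all genes 49.5%). Complex III had 9 of 9 negative and a median of -0.34. Cox7b, a small complex IV subunit (chromosome X, 106015700 to 106022450), stood at 116 and 71.2 CPM in haEpi1 and haEpi5, 75.4 and 87.3 in Epi_fema and Epi_male and 80.0 in diploid p53-negative EpiSC. It was 223 CPM in p53-negative and 146 CPM in wild-type EpiLC, so that all EpiSC libraries lay below both. The log2 fold change was -1.12 (SE 0.24, edgeR adjusted p 0.019). Without the p53-negative EpiLC library, which carried the naive markers, Cox7b stood at -0.76 (adjusted p 0.172, edgeR) and 1 of the 84, Cox7b2, was called; without the wild-type EpiLC library 2 were. DESeq2 called 8, of which 7 were lower and 1, Ndufa4l2, higher in EpiSC. Of the 13 mitochondrial genes 0 were called by edgeR, 0 by DESeq2 and 0 at an unadjusted p under 0.05, which 27.7% of all genes reached; their median was -0.07.

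EpiLC against ESC gave 0 of 84 nuclear and 0 of 13 mitochondrial genes called, where 0.426% of all genes tested were called, with 4 nuclear and 0 mitochondrial genes at an unadjusted p under 0.05 (14.4% of all genes) and 0 by DESeq2. The nuclear median was -0.06, with 46 of 84 negative (54.8%, all genes 52.6%). Without diploid ESC it was 0.15 and without haploid ESC -0.27, so its sign rests on which ESC library is used. Over all genes edgeR called 90 of 21104 here and DESeq2 960.

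Fibroblasts differed from the stem cells in few of these genes. Against ESC 4 of 84 nuclear members were higher in ESC (4.76%), where 21.3% of all genes tested were called and 9.36% were called higher: Cox7b2, Cox5a (log2 fold change 1.19, SE 0.35, edgeR adjusted p 0.0386), Uqcr10 (1.04, SE 0.31, adjusted p 0.0399) and Cyc1 (0.95, SE 0.30, adjusted p 0.0463). Cyc1, the cytochrome c1 of complex III, stood at 118 CPM in MEF, 211 and 242 in ESC, 239 and 293 in EpiLC and 163 to 214 in EpiSC, so that MEF was lowest of all 10 libraries. The nuclear median for ESC against MEF was 0.26, with 60 of 84 positive. The median was 0.22 over all genes tested, with 11690 of 21104 positive, and 0.03 over the protein-coding ones. Without diploid ESC 1 of 84, Cox7b2, was called. EpiSC against MEF gave 1 of 84 (1.19%), lower in EpiSC, where 14.7% of all genes tested were called and 8.79% were called lower, and a median of -0.0013. That gene was Cox6a2, the muscle and heart form of a complex IV subunit, with 15 counts in MEF and 3 over the 5 EpiSC libraries, a ratio of 28.5 (95% counting interval 8.06 to 153) and an edgeR adjusted p of 0.0306; DESeq2 gave it no adjusted p, and leaving out 1 of 4 EpiSC libraries each lost the call. With a single MEF library, MEF was assumed to vary like the other cell types. No mitochondrial gene was called in either comparison (0 by DESeq2 in both, and 0 at an unadjusted p under 0.05, which 30% of all genes reached against EpiSC and 37.7% against ESC).

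Subunits encoded by more than 1 gene showed wide ranges between libraries. The common forms Cox4i1, Cox6a1, Cox6b1, Cox7a2, Cox8a and Ndufa4 stood at 114 to 267, 163 to 473, 107 to 209, 59.1 to 100.1, 206 to 513 and 71.5 to 136 FPKM over the 10 libraries. Cox4i2, the form of subunit 4 known from lung and low oxygen, lay between 0.0706 and 2.28 FPKM, and Cox8b, known from muscle and brown fat, between 0 and 1.47. Cox6b2, the testis form of Cox6b1, stood at 48.9 FPKM in diploid ESC and 30.6 in Epi_male, 15.5 in wild-type EpiLC and 2.63 to 8.88 in the other 7 libraries. Cox7a1, known from heart and muscle, was 33.1 FPKM in diploid and 21.1 in haploid ESC, 17.7 in Epi_male and 2.81 to 8.54 elsewhere. Ndufa4l2, a relative of the complex IV subunit Ndufa4 known as a low-oxygen target, was 24.9 FPKM in haEpi1 but 1.17 in haEpi5, 1.53 and 1.35 in EpiLC and 5.13 to 15.4 in the others. Cox8b was left out by the low-count filter, and none of the other forms named in this paragraph passed edgeR's test between cell types. DESeq2 called 2 of them: Cox7a1, lower in EpiSC than in ESC (log2 fold change -1.72, DESeq2 adjusted p 0.0437, edgeR 0.0839), and Ndufa4l2, higher in EpiSC than in EpiLC (3.04, DESeq2 adjusted p 0.0031, edgeR 0.0865).

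**Figure D5:**
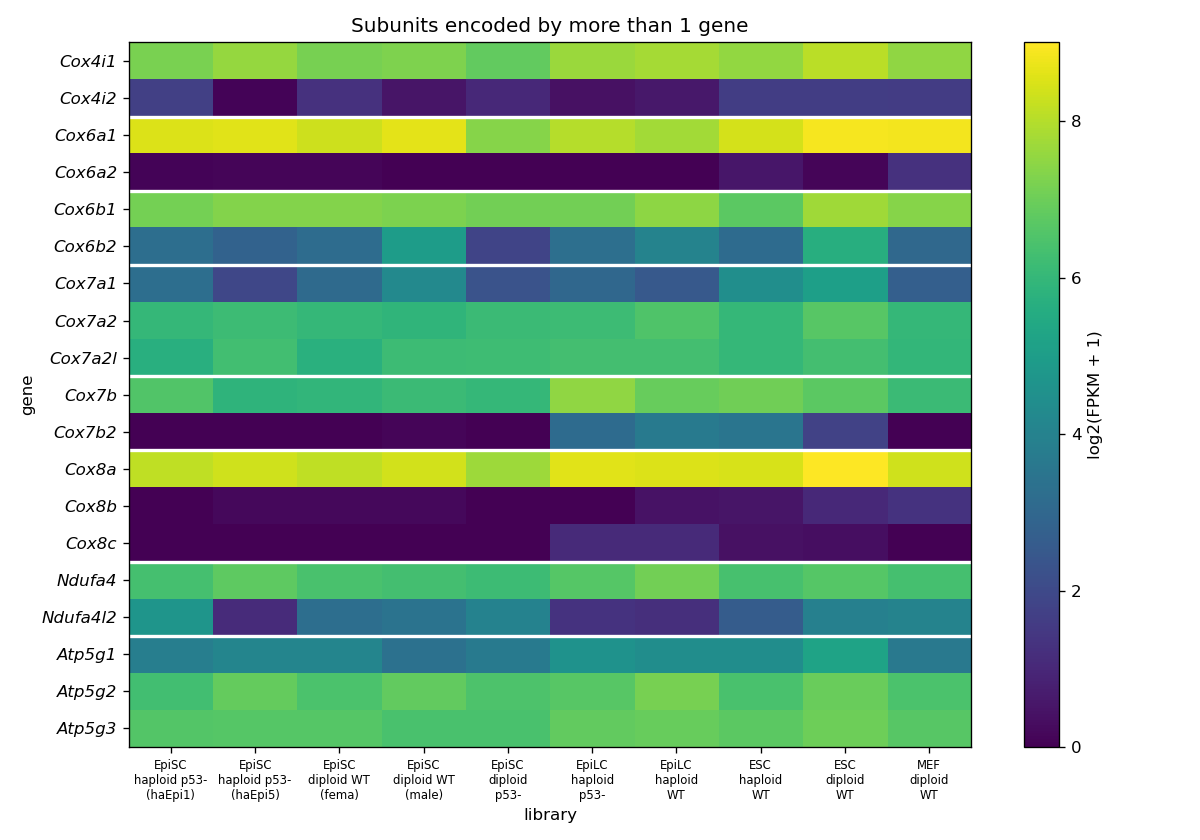
log2(FPKM + 1) of the genes of subunits that have more than 1 gene, by library; white lines separate subunits. Cox7b2 is at or near 0 in the 5 EpiSC libraries and in MEF, whereas Ndufa4l2, Cox6b2 and Cox7a1 vary within a cell type.

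Ndufs5, a complex I subunit singled out after its values were seen, split the libraries across cell types. It stood at 57.6 CPM in Epi_male, 42.9 in diploid p53-negative EpiSC and 60.7 in MEF, and at 6.45 to 13.3 CPM in the other 7 libraries. No library lay between 13.3 and 42.9 CPM. The high libraries are all labelled diploid and every haploid library is low, while diploid ESC (11.2 CPM) and Epi_fema (12.1 CPM) are low too. Wild-type and p53-negative labels both occur among the high and among the low libraries. The part of ploidy and of the p53 label was not tested.

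Among EpiSC groups no member passed. With haploid p53-negative against wild-type diploid, haploid against diploid p53-negative, and diploid p53-negative against wild-type diploid, edgeR called 0 of 82 nuclear and 0 of 13 mitochondrial genes each, and 0% of all 18153 genes tested. At an unadjusted p under 0.05 the nuclear counts were 1, 4 and 10 and the mitochondrial ones 2, 0 and 0, where 3.53%, 5.55% and 3.86% of all genes were; DESeq2 called 0, 0 and 1 nuclear members. The nuclear medians were 0.05, 0.27 and -0.16 on the log2 scale and the mitochondrial ones 0.80, 0.57 and 0.41, with 12, 11 and 10 of 13 positive. Over all 18153 genes 8895, 9745 and 8117 were positive. The 2 haploid libraries did not share the mitochondrial rise. The mitochondrial share of counts was 3.74% in haEpi5 and 1.24% in haEpi1, against 1.42% in Epi_fema, 1.41% in Epi_male and 1.98% in diploid p53-negative EpiSC. Cox6a1, the main form of its complex IV subunit, had the smallest nuclear p in both comparisons with diploid p53-negative EpiSC: it stood at 119 CPM there, 268 and 281 in the haploid p53-negative and 232 and 288 in the wild-type diploid libraries (haploid over diploid p53-negative 1.22, SE 0.32, edgeR adjusted p 0.679). Ndufa12 of complex I, lowest in the same library at 13.1 CPM, stood at 42.7 and 28.5 CPM in haEpi1 and haEpi5 and at 18.3 and 22.2 in Epi_fema and Epi_male. The gene DESeq2 called was Cox6b2, at 3.04 CPM against 9.25 and 35.2 in wild type (DESeq2 adjusted p 0.0296).

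Levels of short and long members, by the gene length used for FPKM, differed between libraries. As the median deviation from each gene's mean over the 10 libraries on the log2 scale, the 22 nuclear members under 1000 bases stood at -0.62 in diploid p53-negative EpiSC and -0.27 in haEpi5, while the 62 longer ones stood at -0.25 and 0.12. The 533 short protein-coding genes of the whole table stood at -0.29 and -0.10 in these libraries. They were also low where short members were not: in haEpi1 (-0.13, short members 0.11), Epi_fema (-0.11, members 0.06), Epi_male (-0.10, members 0.07) and MEF (-0.27, members 0.07). Diploid ESC was high for both classes of members, 0.45 and 0.30. Short members include many small subunits of complexes I and IV; the part of length in the results was not tested.

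Pairs of single libraries have no test. Haploid ESC stood below diploid ESC for 72 of 84 nuclear members (9801 of 21104 over all genes), with a median log2 ratio of -0.35 (all genes 0.05). Of the 84, 6 differed by 2-fold or more, where 30.8% of all genes did. Cox6b2 (8.59 against 53.8 CPM), Ndufa4l2 (5.54 against 15.5), Ndufa12 (16.4 against 37.5) and Cox6b1 (74.7 against 147) were the most reduced among genes with at least 100 counts. Cox7b2 (5.54 against 1.30 CPM), Atp5e (61.9 against 26.3), Ndufa1 (58.6 against 31.6) and Ndufa8 (98.4 against 59.8) were the most raised. Mitochondrial genes went both ways, from -1.11 for mt-Nd4l to 1.13 for mt-Nd6. The fibroblast marker sum was 979 CPM in the haploid and 22.7 CPM in the diploid library, and its part was not tested.

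The p53-negative EpiLC library stood beside wild-type EpiLC with a nuclear median log2 ratio of -0.03 (all genes 0.04), and 4 of 84 nuclear members differed by 2-fold or more, where 28.6% of all genes did. Atp5e (57.5 against 23.8 CPM), Ndufa1 (51.7 against 21.8), Atp5s (8.06 against 3.87) and Ndufb11 (108 against 54.1) were highest relative to wild type. Uqcrh (71.3 against 155 CPM), Ndufa5 (33.4 against 58.3), Cox6b2 (10.01 against 17.3) and Ndufa7 (98.2 against 165) were lowest. The mitochondrial genes were lower for 12 of 13 (10208 of 21104 over all genes), with a median of -0.67: mt-Cytb stood at 2046 against 4869 CPM and mt-Co1 at 5750 against 11269. The same libraries differed in naive markers, 750 against 76.9 CPM, and the part of that difference was not tested.

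Calls among genes that build or feed the chain varied by list and comparison. In EpiSC against ESC, 1 of 43 assembly factors fell (Atpaf1, which assembles the F1 part of ATP synthase, log2 fold change -0.78, SE 0.23, edgeR adjusted p 0.0458), as did 1 of 77 mitochondrial ribosomal proteins (Mrps5, -0.77, SE 0.17, adjusted p 0.0155), and 0 of 17 citric acid cycle genes and 0 of 30 genes of mitochondrial transcription and RNA passed; 10.1% of all genes tested were called lower and 6.86% higher. Of 15 biogenesis regulators 3 were called (20%, where 16.9% of all genes tested were called). Esrrb, an orphan receptor of naive cells, fell by 6.54 (SE 0.90, edgeR adjusted p 0.0017). Gabpa, the ETS factor whose motif was searched above, fell by 1.01 (SE 0.18, edgeR adjusted p 0.00542). Gabpa stood at 80.8 to 108 CPM in EpiSC and 180 and 202 CPM in ESC. Myc rose by 2.46 (SE 0.53, edgeR adjusted p 0.0126). In EpiSC against EpiLC, 6 of 30 genes of mitochondrial transcription and RNA fell, where 5.88% of all genes tested were called lower, with Ssbp1, which binds single-stranded mitochondrial DNA, at -1.19 (SE 0.25, edgeR adjusted p 0.0184), the mitochondrial translation protein Ptcd3 at -1.06 (SE 0.26, adjusted p 0.0338) and the tRNA-processing enzyme Elac2 at -0.92 (SE 0.21, adjusted p 0.0251). The other lists varied: 0 of 43 assembly factors and 0 of 17 citric acid cycle genes were called in that comparison. Called lower were 3 of 77 mitochondrial ribosomal proteins (3.9%), 2 of 15 biogenesis regulators (13.3%) and 2 of 12 genes of cytochrome c and carriers (16.7%). Nrf1, the regulator whose motif was in 17 member promoters, fell by 0.73 against EpiLC (SE 0.19, edgeR adjusted p 0.0388), from 92.9 and 111 CPM in EpiLC to 54.5 to 74.9 CPM in EpiSC. Of the members called lower in EpiSC than in ESC, 4 had a promoter window. Each searched motif was in 0 of these 4. Whether the levels of Nrf1 or Gabpa bear on the members was not tested. The shared EpiSC libraries enter both comparisons.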

How the data were processed

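Poly-T selected RNA of 10 libraries was sequenced from NEBNext libraries, per the labels' protocols. The deposited counts are whole reads per gene made with featureCounts 1.5.0-p3 after HISAT2 2.0.5 alignment to mm10, per the submitters' processing notes. FPKM, also deposited by the authors, were counts per length times a library constant (relative deviation at most 1.66e-08 for counts above 20). Strand setting and treatment of multiply mapped reads are not given in the sources used here.

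The test was that of edgeR 4.0.16, run in R 4.3.3 (filterByExpr, TMM, quasi-likelihood F test, Benjamini-Hochberg threshold 0.05 over all genes tested). Cell types used 1 fit of 10 libraries with 1 mean per cell type, and EpiSC groups a fit of their 5 libraries; a lone library was taken to vary as the others do. Standard errors were derived from the log2 fold change and F. Single-library pairs are log2 ratios of CPM with a prior count of 2. Where a library had 0 counts, up to 3 were allowed for. Alternatives were DESeq2 1.42.0, limma 3.58.1 on log2(FPKM + 1) of genes reaching 1 FPKM, no low-count filter, library sizes without mt- genes, covariates for p53 and ploidy, wild-type libraries only, and leaving out each library. Total counts of 15862113 to 18814003 set the depth, and all libraries differed pairwise beyond sampling noise (chi-square per degree of freedom at least 38.9). The edgeR step was tested on simulated counts.

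Named genes were, by rule, all mt- genes and subunit forms, up to 6 called members a direction or else those of smallest p, 4 a direction with 100 counts in single-library pairs, the 3 highest and lowest by FPKM in each complex, and up to 3 per related list; Ndufs5 falls outside it. Members and lists were chosen with earlier results of these data known. mt-Co1 and its copy were aligned with Biopython 1.88.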

Additional observations from a re-analysis of the deposited data

Results flagged for a closer look

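Among the 5 EpiSC libraries, 14 of 90 members tested had 1 library set far from the other 4. A nominal rate of 1 in 20 would give 4.5. The share of all genes with 1 EpiSC library this far from the others is not given here. Whether the members exceed other genes in this respect is therefore not known. In 11 of the 14 members the library set apart was haEpi5. It was high for mt-Nd1 (5219 CPM, the others 1841 to 2271), mt-Nd2 (3091, others 1060 to 1269), mt-Nd5 (2905, others 1225 to 1571), mt-Cytb (6972, others 1751 to 2965) and mt-Atp6 (144, others 8.54 to 25.6). It was also high for the nuclear members Ndufa11 (72.9 CPM, others 40.0 to 45.5), Ndufs8 (65.9, others 36.3 to 43.1), Uqcrc1 (299, others 165 to 189), Cox5a (95.1, others 66.7 to 74.9), Atp5j2 (156, others 91.5 to 98.2) and Atp5l (130, others 64.4 to 79.3). Genes of 1 library are not independent, so these stand for 1 library more than for 11 genes.

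The diploid p53-negative EpiSC library was low for Uqcrq (69.2 CPM, others 108 to 118) and Atp5j (82.5, others 112 to 123), and its nuclear share of counts was 0.825% against 0.963% to 1.01% in the others. Epi_male was high for the testis form Cox6b2 (35.2 CPM, others 3.04 to 9.90).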

How the results depend on the processing

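Counts of calls, medians of the single-library pairs and the 14 log2 fold changes of called members were recomputed; genes of the related lists and uncalled members were not. None of the 14 reversed: of 218 values under alternatives, 153 stayed on their side of the threshold and 65 no longer passed. The count of nuclear members called in EpiSC against ESC was 5, and it was 8 with limma, 2 with covariates and 0 with wild-type libraries only; leaving out 1 library gave 1 to 6. In EpiSC against EpiLC it was 4, and it was 8 with DESeq2, 1 with covariates, 0 with wild-type libraries only and 1 to 6 without 1 library. EpiSC against MEF moved from 1 to 0 with DESeq2 (which gave Cox6a2 no adjusted p), 2 with limma, 0 with covariates, 0 with wild-type libraries only and 0 to 1 without 1 library; ESC against MEF moved from 4 to 1 with covariates, 0 with wild-type libraries only and 1 to 5 without 1 library. EpiLC against ESC moved from 0 to 1 with limma. Diploid p53-negative against wild-type EpiSC moved from 0 to 1 with DESeq2; without a low-count filter 1 nuclear and 1 mitochondrial gene were called there, 1 nuclear gene in haploid against diploid p53-negative EpiSC and 1 mitochondrial gene in haploid p53-negative against wild-type EpiSC, where leaving out 1 library gave 0 to 1 nuclear genes. Fewer libraries enter the wild-type fits and those without 1 library, and the share of all genes called in each refit is not given here. The cause of these changes was not tested. Leaving mt- genes out of the library sizes moved no count of calls by more than 1.5 times. No paired analysis was possible because the labels give the groups compared no shared replicate numbers. Depth limits Cox7b2, Cox6a2, Cox8b and Cox8c, and mapping limits the 6 low mitochondrial genes and parts of mt-Nd4 and mt-Co1.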
